A study of Mus musculus with 4 samples.

Results

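Ly49-bearing cycling T cells are described here in tumours of mice given anti-PD-1. A cell was counted as one when its deposited Cd3e and Mki67 values were above 0 and at least 2 of the 5 receptor genes Klra1, Klra6, Klra7, Klra9 and Klrb1f were above 0. The rule found 310 cells among 3936 cycling T cells (Cd3e and Mki67 above 0), or 7.88% (exact 95% interval 7.05 to 8.76). The library held 12562 cells and the series 13213. The other 3626 cycling T cells of the same library are the cells they are set against. The tumours were MC38-derived, a mouse colon carcinoma line, implanted orthotopically in C57BL/6 mice. Anti-PD-1 was given 3 times a week, 5 times in all, and 5 tumours were pooled into 1 10x Genomics library at 2 weeks after the first treatment. The ATT-I (Atractylenolide I, 50 mg/kg daily), combination and vehicle arms had 1 library each, also of 5 pooled tumours. The labels of the vehicle arm name both a vehicle control and no treatment.

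Ly49 proteins are C-type lectin-like receptors that bind class I MHC molecules, and most inhibit the cell through an ITIM motif that recruits phosphatases. Activating Ly49 receptors have no such motif and signal through the adaptor encoded by Tyrobp. Their Klra genes lie in the natural killer gene complex together with the Klrb1, Klrc, Klrd1 and Klrk1 genes. NK cells express Ly49 receptors in overlapping combinations, and in mice they are also found on some memory-type and regulatory CD8 T cells. Mki67 encodes a nuclear protein of cycling cells. In mouse NK cells TCF-1, encoded by Tcf7, is known to bind a site in the promoter of Klra1.

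The receptor genes lie on chromosome 6 of mm10 (GRCm38). Klra6 (Ly49F) spans 130013033 to 130026954, Klra9 (Ly49I) 130178675 to 130193112, Klra7 (Ly49G) 130218605 to 130233322 and Klra1 (Ly49A) 130363917 to 130386874, all on the minus strand. Klrb1f, which encodes NKR-P1F, spans 129045901 to 129057464 on the plus strand. Promoter windows from RefSeq (GRCm38.p6) were searched on both strands for ATCAAAG and AACAAAG, forms of the motif that TCF-1 and LEF-1 recognise. The stretch below is shown because Klra6 and Klra7, the receptor genes found in the largest shares of cells, share it with Klra9 and Klra5. The motif lies in it as ATCAAAG in Klra6 and Klra7 and as AACAAAG in Klra9, but not in Klra5. Klra1, found in 51.3% of the cells, aligned to it over 13 bases only. Capitals mark the motif, which reads here as its reverse complement.
Klra6, chr6:130027036-130027095, minus strand: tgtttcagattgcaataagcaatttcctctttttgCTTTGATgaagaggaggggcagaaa
Klra7, chr6:130233374-130233429, minus strand: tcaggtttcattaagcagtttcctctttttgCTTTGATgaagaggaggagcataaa
Klra9, chr6:130193113-130193172, minus strand: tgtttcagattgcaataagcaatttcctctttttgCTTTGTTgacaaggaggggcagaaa
Klra5, chr6:129913277-129913336, minus strand: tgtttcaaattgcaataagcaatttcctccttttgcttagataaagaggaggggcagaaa
The stretch begins 141 bases before the gene start in Klra6, 107 in Klra7, 60 in Klra9 and 112 in Klra5, counted from the RefSeq start of each window. For Klra5 that start lies inside the GENCODE gene, which spans 129898996 to 129917650. Against the Klra6 stretch, 50 of 56 aligned positions were identical in Klra7, 57 of 60 in Klra9 and 56 of 60 in Klra5. In Klra3, where 58 of 60 were identical, the stretch runs past the gene start and is not shown. Klra7 has a second RefSeq window, which holds neither form, and the window shown also holds AACAAAG elsewhere. Of all 32851 promoter windows of 300 bases, 3.73% hold ATCAAAG, 5.85% hold AACAAAG and 9.33% hold either. Neither form is in the windows of Klra1, Klrb1f, Klra3 and Klra5, which says only that these letters are not there. A match is a description and not a site of binding.

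Levels below are unique molecular identifiers (UMIs, counted molecules) of a gene per 10000 UMIs, summed over the cells of a set. Their intervals, and those of the ratios, cover counting error only, because all cells come from 1 library of pooled tumours and cells are not replicates. No test of a difference was therefore possible and none is given. The cells were chosen on values from the same cells, so every contrast is a description. The median cell held 12821.5 UMIs in Ly49-bearing cycling cells and 10873 in the other cycling cells. When each cell was thinned to 4000 UMIs and the rule applied again, 114 of 2332 cycling cells (4.89%) passed it. The same rule found 4 of 81 cycling T cells under ATT-I, 4 of 148 in the combination and 5 of 93 in vehicle, too few for levels. Of all cell barcodes, 1 is found in more than 1 library.

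T cell markers were read by level, because their UMIs were also frequent in NK cells without Cd3e, all 37 of which had a UMI of Trac, Trbc1 or Trbc2. Cd3d was at 10.8 in Ly49-bearing cycling cells and 1.73 in those NK cells, and Trac at 6.78 and 1.04. Trbc2 was at 16.1 and 5.05. The levels of Trbc1, given further on with the NK cells, lay closer together. Cd3d was found in 99.0% and 78.4% of cells. The receptor and Mki67 markers were set by the rule. Sh2d1b1, a marker outside the rule that encodes the adaptor EAT-2, was found in 38 of the 310 cells (12.3%) and in 0.993% of other cycling cells. Thinned to 4000 UMIs, these shares were 5.28% and 0.433%. Without thinning, Sh2d1b1 was also found in 10.1% of Ly49-bearing T cells without an Mki67 UMI and 56.8% of those NK cells. Like the cells, this marker was chosen with earlier results of these data known. Free RNA was gauged in 306 cycling T cells with Foxp3 and Cd4 UMIs, at a median of 11323 UMIs. At least 1 receptor gene was found in 44 of them (14.4%) and at least 2 in 3 (0.980%). The 512 other cycling cells with exactly 1 receptor gene (14.1%) are near the 14.4% with at least 1 in those cells. The 7.88% with at least 2 is above their 0.980%. Cycling cells with 1 receptor gene still differed from those with 0, with Xcl1 at 3.20 and 1.66 and Tyrobp at 0.214 and 0.0803. The part of free RNA in them was not tested.

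Klra7 was found in 234 of the 310 cells (75.5%), Klra6 in 226 (72.9%), Klra1 in 159 (51.3%), Klrb1f in 124 (40.0%) and Klra9 in 86 (27.7%). In cells with the gene, the median was 7 UMIs for Klra7, 5 for Klra1, 3 for Klra6 and Klra9, and 2 for Klrb1f. The commonest combination was Klra6 with Klra7 alone, in 58 cells, followed by these and Klra1 in 38 cells. Klra1 with Klra7 was found in 27 cells and all but Klra9 in 25. All 5 genes were found in 9 cells. By number, 163 cells had 2 of the genes, 94 had 3 and 44 had 4. Klra genes are near-identical paralogs, so the split of UMIs among them is uncertain.

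**Figure D1:**
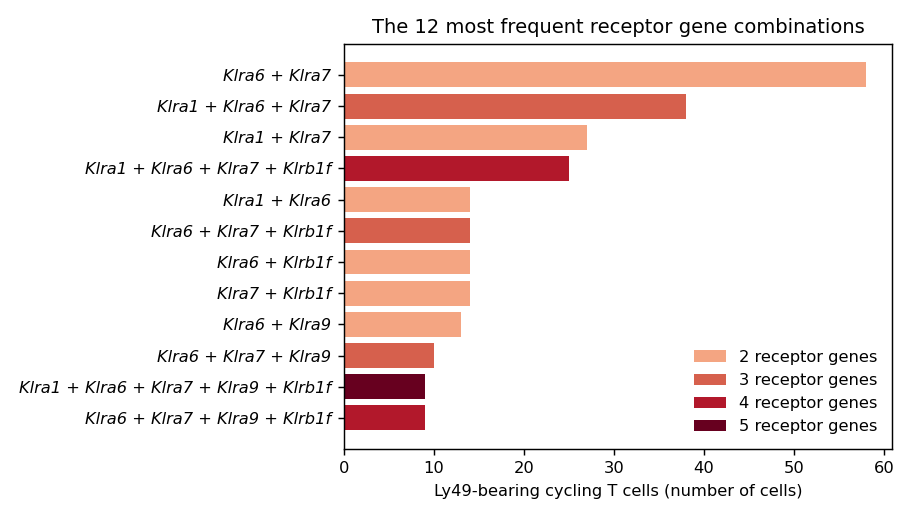
Number of Ly49-bearing cycling T cells (x axis) with each of the 12 most frequent combinations of the 5 receptor genes (y axis), coloured by the number of genes. Klra6 with Klra7 leads with 58 cells, and the 9 cells with all 5 genes are among the combinations shown.

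Several NK cell markers (5 of 8 measured), naive and memory genes (8 of 13) and the chemokine gene Xcl1 were higher in Ly49-bearing cycling T cells than in the other cycling T cells. Gzma, counted among these NK cell markers, had 38.3% of its UMIs in the Ly49-bearing cell with most of them. Inhibitory receptor and exhaustion genes (7 of 12), costimulatory receptors (8 of 13) and effector transcription factors (8 of 17) were lower. Of 7830 genes measured (a UMI in at least 10% of either set's cells), 385 (4.92%) were at least 1.5-fold higher and 390 (4.98%) at least 1.5-fold lower. The median gene had a log2 ratio of 0.00. The counts and medians of the lists below are to be read beside these shares.

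Outside the genes of the rule, Ncr1, which encodes the NK receptor NKp46, had the highest ratio. Its level was 0.412 in Ly49-bearing and 0.0160 in other cycling cells, a log2 ratio of 4.69 (95% interval 4.29 to 5.11), yet 12.9% and 0.717% of cells had a UMI. Atp1b1, a sodium pump subunit, followed at 0.525 and 0.0249 (log2 ratio 4.39). Klrb1c, which encodes NK1.1, stood at 1.01 and 0.0524 (4.26). The adaptor gene Tyrobp (4.25), described below, was close to it. Clnk, an adaptor of immunoreceptor signalling (4.06), Rbpms, an RNA-binding protein (4.02), Sh2d1b1 (3.84), Klrb1a (3.69) and Cxxc5, a zinc finger protein (3.62), came next. Id3 (3.11), Tcrg-C4 (3.02), Xcl1 (2.98), Tcrg-C1 (2.86), Treml2 (2.83) and Aff3 (2.77) completed the 15 highest.

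The lowest ratios were those of Smpdl3b, a lipid phosphodiesterase (log2 ratio -3.48, from 4 UMIs in the Ly49-bearing cells), and Ifitm1, an interferon-induced membrane protein (-2.92). Gldc, glycine decarboxylase, stood at -2.67 and Penk, the enkephalin precursor, at -2.51. The long non-coding RNA 2310031A07Rik (-2.42), the late effector marker Klrg1 (-2.39), the metallothionein genes Mt2 (-2.23) and Mt3 (-2.07) and the inhibitory receptor gene Havcr2 (-2.22) were also among the 15 lowest. The rest were Ltb4r1 (-2.19), Il1r2 (-2.15), Asns (-2.15), Slc16a11 (-2.05), Slamf1 (-2.03) and Dusp4 (-2.02).

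**Figure D2:**
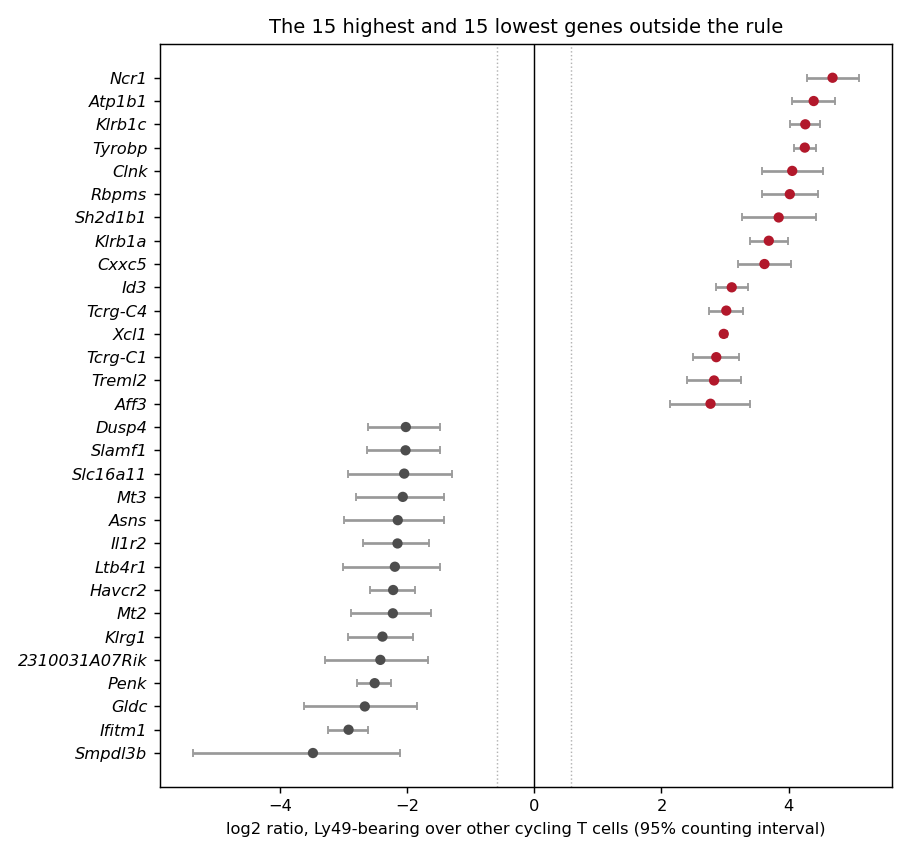
Log2 ratio of Ly49-bearing over other cycling T cells (x axis) for the 15 highest and 15 lowest genes outside the rule (y axis), with 95% counting intervals; dotted lines mark 1.5-fold. Ncr1 is highest at 4.69, and Smpdl3b lowest at -3.48 with the widest interval.

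Among Ly49 genes outside the rule, Klra3 (Ly49C) stood at 0.993 in Ly49-bearing and 0.282 in other cycling cells (log2 ratio 1.82). Klra5 (Ly49E) stood at 0.597 and 0.178 (1.75). Klra3 had a UMI in 27.7% of Ly49-bearing, 12.2% of other cycling and 5.56% of Foxp3 Cd4 cells, and Klra5 in 11.3%, 4.96% and 0.980%. Klra8 and Klra4, which encode the activating receptors Ly49H and Ly49D, had UMIs in 5 and 4 of the 310 cells and were not measured. Of the other lectin-like receptors, 4 of 10 measured were higher, Klrb1f of the rule among them, and 3 lower, with a median log2 ratio of 0.36. Klrk1, the activating receptor NKG2D, was higher at 4.31 and 2.10 (1.03). The inhibitory receptor gene Klrc1, NKG2A, was lower at 1.41 and 2.40 (-0.77), and so was Klri2 (-0.82). Klrd1, the CD94 partner of NKG2 proteins, was at 8.20 and 6.69 (0.30).

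Of 7 measured receptor adaptors, 3 were higher and 2 lower. Tyrobp, the adaptor DAP12, ran from 0 to 59 UMIs per cell (median 0.5) in Ly49-bearing cells and from 0 to 33 (median 0) in other cycling cells. The sets overlap, since cells without a UMI are found in both. Its level was 1.91 in Ly49-bearing and 0.100 in other cycling cells (log2 ratio 4.25, interval 4.09 to 4.42). Tyrobp was found in 50.0% and 6.98% of cells, and after thinning in 32.3% and 3.38%, against 3.79% of thinned Foxp3 Cd4 cells. Fcer1g, the Fc receptor gamma chain, stood at 7.10 and 2.09 (1.76). Hcst, the NKG2D adaptor DAP10, was at 4.04 and 4.21 (-0.06), and Cd247, the CD3 zeta chain, was lower at 0.914 and 1.37 (-0.59). Of 11 phosphatases and kinases of receptor signalling, Pag1 was higher (1.19) and Lat lower (-1.01), while Ptpn6, the SHP-1 phosphatase that ITIMs recruit, was at 1.75 and 2.24 (-0.35).

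Of NK cell markers, 5 of 8 measured were higher (Ncr1, Klrb1c, Tyrobp, Fcer1g and Gzma) and 1, Prf1, was lower. Gzma had 38.3% of its UMIs in 1 Ly49-bearing cell. Without the cell with most UMIs in each set, its log2 ratio was 0.04. The summed level of the 9 markers in the table was 20.9 in Ly49-bearing and 12.5 in other cycling cells, and none was at 0. Cells with an Ncr1 UMI numbered 40 of the 310. Without Ncr1 cells in either set, 374 genes were higher and 414 lower. The B cell markers summed to 1.97 and 1.90 with Cd79a at 0, and the myeloid markers to 2.26 and 2.60. Tumour epithelial markers summed to 0.239 and 0.127, with Krt18 and Krt19 at 0 and Epcam at 0.176 and 0.0771 (log2 ratio 1.19), and fibroblast markers to 0.166 and 0.121, with Pdgfra at 0. The part of cells of these types in the results was not tested.

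The alpha and beta constant genes of the T cell receptor differed by less than 1.5-fold. Trac was at 6.78 in Ly49-bearing and 8.69 in other cycling cells (log2 ratio -0.36), and Trbc1 at 8.07 and 9.51 (-0.24). The gamma constant genes Tcrg-C4 (0.501 and 0.0618) and Tcrg-C1 (0.265 and 0.0364) were higher, whereas Tcrg-C2 was at 1.48 and 1.43. Trdc, the delta constant gene that defines gamma-delta T cells, was found in 9 of the 310 cells (2.90%) and in 19 of the 3626 (0.524%).

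The coreceptor genes were lower. Cd8a stood at 3.59 in Ly49-bearing and 7.37 in other cycling cells (log2 ratio -1.04, interval -1.11 to -0.96), and Cd8b1 at 2.31 and 7.66 (-1.73, interval -1.82 to -1.64). The level of Cd8b1 was therefore below that of Cd8a in Ly49-bearing cells but not in other cycling cells. A Cd8b1 UMI was found in 137 of 230 Ly49-bearing cells with Cd8a (59.6%) and in 2886 of 3087 other cycling cells with it (93.5%). After thinning these shares were 50.0% and 91.4%. UMIs of both genes were also frequent in cells expected to lack them. The Foxp3 Cd4 cycling cells held Cd8a at 1.87 and Cd8b1 at 1.95, with a UMI in 51.6% and 54.6% of cells. By share, the 53.9% of Ly49-bearing cells with a Cd8b1 UMI is at that background, and the 74.2% with Cd8a is above it. By level, Cd8b1 in Ly49-bearing cells (2.31, interval 2.17 to 2.46) was above that in Foxp3 Cd4 cells (1.95, interval 1.82 to 2.09). In NK cells, a smaller set described further on, the shares were lower, at 37.8% for Cd8a and 16.2% for Cd8b1. After thinning, 35.3% of Ly49-bearing cells had Cd8b1 and 55.4% had Cd8a, against 34.8% of Foxp3 Cd4 cells for either gene.

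By coreceptor, 235 of the 310 cells had a CD8 UMI without Cd4, 3 had Cd4 alone, 25 had both and 47 (15.2%) had neither. Other cycling cells fell into 2734, 227, 533 and 132 (3.64%). Cells with neither made up 36.0% of Ly49-bearing and 8.20% of other cycling cells after thinning, so this class grows with shallower depth. No doublets were removed. Without the cells with both coreceptors, 391 genes were higher and 382 lower.

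Naive and memory genes were on the higher side, with 8 of 13 measured at least 1.5-fold higher, 0 lower and a median log2 ratio of 0.89. Tcf7, which encodes the memory and stem-like factor TCF-1, stood at 0.895 in Ly49-bearing and 0.161 in other cycling cells (2.47, interval 2.29 to 2.65). It was found in 57.4% and 11.2% of cells (23.8% and 6.12% thinned), against 6.21% of Foxp3 Cd4 cells (2.41% thinned). Id3, a repressor of E proteins, stood at 0.555 and 0.0645 (3.11). Lef1, a factor related to TCF-1, was at 0.469 and 0.197 (1.25). Bach2 (1.48), Satb1 (0.93), S1pr1 (0.89) and Foxp1 (0.81) were also higher. Il7r, the IL-7 receptor, was at 0.672 and 0.697 (-0.05).

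Inhibitory receptor and exhaustion genes were mostly lower, with 7 of 12 lower, 1 higher and a median of -0.82. Pdcd1, the gene of the antibody's target, stood at 1.03 in Ly49-bearing and 2.92 in other cycling cells (-1.51, interval -1.65 to -1.37). Havcr2, TIM-3, was at 0.169 and 0.786 (-2.22), Ctla4 at 0.794 and 2.42 (-1.61), and Lag3 at 1.17 and 2.51 (-1.11). Entpd1 (-1.36), Nr4a2 (-0.83) and the exhaustion factor Tox (-0.82) were lower too. Cd160, an inhibitory receptor also found on NK cells, was the gene that was higher, at 3.34 and 1.09 (1.61).

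Of 13 costimulatory receptors, 8 were lower and 1 higher, with a median of -0.89. Icos (0.403 and 1.39, -1.78), Tnfrsf4 (0.942 and 3.61, -1.94) and Tnfrsf9 (1.91 and 4.00, -1.07) were lower, as was Cd28 (-0.89). The surface molecule genes Cd5 (-1.31) and Cd6 (-1.22) were lower as well. Crtam, an adhesion receptor of activated cytotoxic cells, was higher at 0.654 and 0.155 (2.08). Of 8 regulatory T cell genes, 7 were lower, among them Foxp3 (0.101 and 0.337, -1.74). Ikzf2, the factor Helios, was higher at 5.07 and 3.18 (0.67), and after thinning was found in 76.9% and 52.7% of cells. Foxp3 was in 8.06% of Ly49-bearing cells, whereas the other cycling cells include the Foxp3 Cd4 cells. Cd7, a receptor of T and NK cells named here after its values were seen, stood at 7.48 and 1.52 (2.30).

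Xcl1, the chemokine that draws XCR1-bearing dendritic cells, was abundant. It ran from 0 to 471 UMIs per cell (median 10) in Ly49-bearing and from 0 to 302 (median 0) in other cycling cells, so the sets overlap at the low end. Its level was 14.9 and 1.89 (log2 ratio 2.98, interval 2.93 to 3.03). It was found in 90.6% and 36.3% of cells, after thinning in 80.9% and 22.2%, and in 12.1% of thinned Foxp3 Cd4 cells. Of 14 cytokines and chemokines, 2 were higher, Xcl1 and Cxcl10 (1.15), and 6 were lower. Ifng, interferon gamma, stood at 1.01 and 3.34 (-1.72), Ccl3 at 1.34 and 3.49 (-1.39) and Ccl4 at 4.21 and 9.24 (-1.13). Ccl5 was at 31.9 and 29.9 (0.10).

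Of 12 cytotoxic genes, 4 were lower and 1 higher. Prf1, perforin, stood at 1.26 in Ly49-bearing and 3.68 in other cycling cells (-1.55), and Gzmf at 0.911 and 3.53 (-1.96). Gzmk (-1.53) and the cystatin gene Cst7 (-0.80) were also lower. Gzmb, granzyme B, was at 9.43 and 13.6 (-0.53). Gzma was the gene called higher, at 4.85 and 3.07 (0.66), but 38.3% of its UMIs came from 1 cell. Without the 5% of cells with most UMIs its log2 ratio was -0.30, and in cells with at least 3 receptor genes it was -1.18. Of 17 effector transcription factors, 8 were lower and 0 higher, among them Prdm1 (Blimp-1, -1.27), Bhlhe40 (-0.85) and Runx2 (-0.95). Tbx21 (T-bet, 0.15) and Eomes (0.41) did not reach 1.5-fold.

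Cytokine receptors and homing genes were divided. Of 15 cytokine receptors, Il6st (log2 ratio 1.38) and Il4ra (0.73) were higher and Il2ra (-1.44) and Il10ra (-0.74) lower. Il2rb, the shared IL-2 and IL-15 receptor beta chain, was at 4.45 in Ly49-bearing and 4.69 in other cycling cells (-0.07). Of 16 homing and residency genes, S1pr1 (0.89), the chemokine receptor gene Cxcr3 (0.71) and the integrin gene Itga1 (0.62) were higher. Cx3cr1 (-1.27), Cxcr6 (2.34 and 5.36, -1.19) and Ccr2 (-0.84) were lower.

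The proliferation genes were close in level. Both sets were chosen on Mki67, so likeness in cell cycle genes is partly set by that choice. None of 21 G1/S and DNA replication genes and none of 21 G2/M and mitotic genes reached 1.5-fold in either direction, with medians of 0.07 and 0.05. Mki67 was at 4.86 in Ly49-bearing and 4.46 in other cycling cells. Of 14 glycolysis genes, 5 were lower and 0 higher (median -0.54), with Aldoa at 6.02 and 9.78 (-0.70). Of 4 Ifitm genes, 3 were lower (median -1.31), and Ifitm2 stood at 0.480 and 1.62 (-1.76). Of 15 type I interferon-stimulated genes, 3 were higher (Oasl1 1.89, Usp18 0.97 and Irf7 0.70) and 0 lower (median 0.42). Without cells with 2 or more UMIs of other cell types, which left 36 Ly49-bearing cells, that median was -0.36. Of 15 S100, annexin and galectin genes, 4 were lower, with Lgals1 at 11.8 and 23.9 (-1.02). None of 13 class I MHC and antigen presentation genes, which include the Ly49 ligands, reached 1.5-fold (median -0.06).

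**Figure D3:**
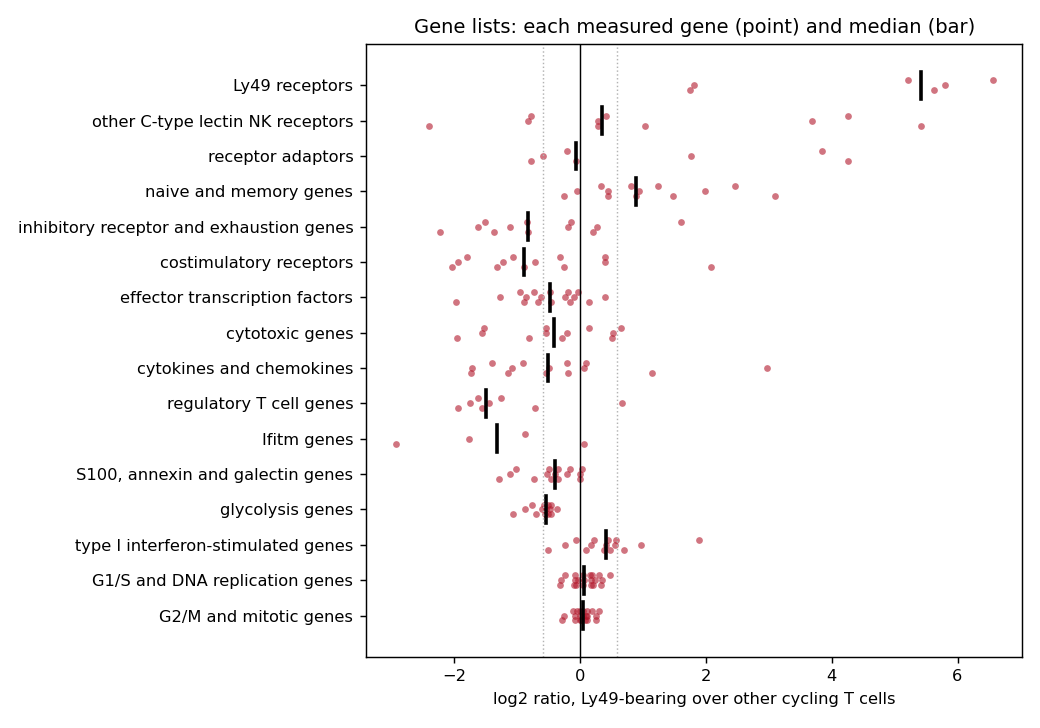
Log2 ratio of Ly49-bearing over other cycling T cells (x axis) for each measured gene (points) of 16 lists (y axis), with the list median as a black bar and 1.5-fold as dotted lines. Naive and memory genes sit to the right (median 0.89), and exhaustion (-0.82) and costimulatory genes (-0.89) to the left. Both cell cycle lists sit at 0.07 and 0.05. The Ly49 list includes Klra1, Klra6, Klra7 and Klra9, and the other lectin list Klrb1f, which chose the cells. The Ly49 median (5.42) is therefore set by the rule, whereas Klra3 and Klra5 outside it were at 1.82 and 1.75.

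The pattern was also present among cells with Cd8a and without Cd4 (207 Ly49-bearing and 2667 other cycling cells). A Cd8a UMI was also found in 51.6% of Foxp3 Cd4 cycling cells, so this filter may not isolate CD8 T cells. Of 7839 genes measured there, 459 (5.86%) were higher and 343 (4.38%) lower. Of the 13 naive or memory genes, 9 were higher, of 12 exhaustion genes 7 were lower, and of 13 costimulatory receptors 7 were lower. Of 15 interferon-stimulated genes, 7 were higher, with a median of 0.56. Regulatory T cell genes were lower for 4 of 7, with a median of -0.84, and Ikzf2 was at 5.10 and 2.30 (1.15).

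The cells just inside the threshold (163 with 2 receptor genes) and just outside it (512 with 1) are compared here with no test. Tyrobp was at 0.0803 in cycling cells with 0 receptor genes, 0.214 with 1, 1.69 with 2 and 2.15 with 3 or more. Xcl1 was at 1.66, 3.20, 11.5 and 18.6 in the same order of receptor number. Tcf7 was at 0.143, 0.267, 0.801 and 0.998. In the other direction, Cd8b1 was at 7.78, 6.93, 2.94 and 1.63, Pdcd1 at 2.93, 2.89, 1.32 and 0.703, and Havcr2 at 0.808, 0.660, 0.201 and 0.133. Cells with 1 gene stood nearer to those with 0 than to those with 2 for each of these genes. Prf1 was at 1.27 with 2 genes and 1.25 with 3 or more, with overlapping intervals.

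**Figure D4:**
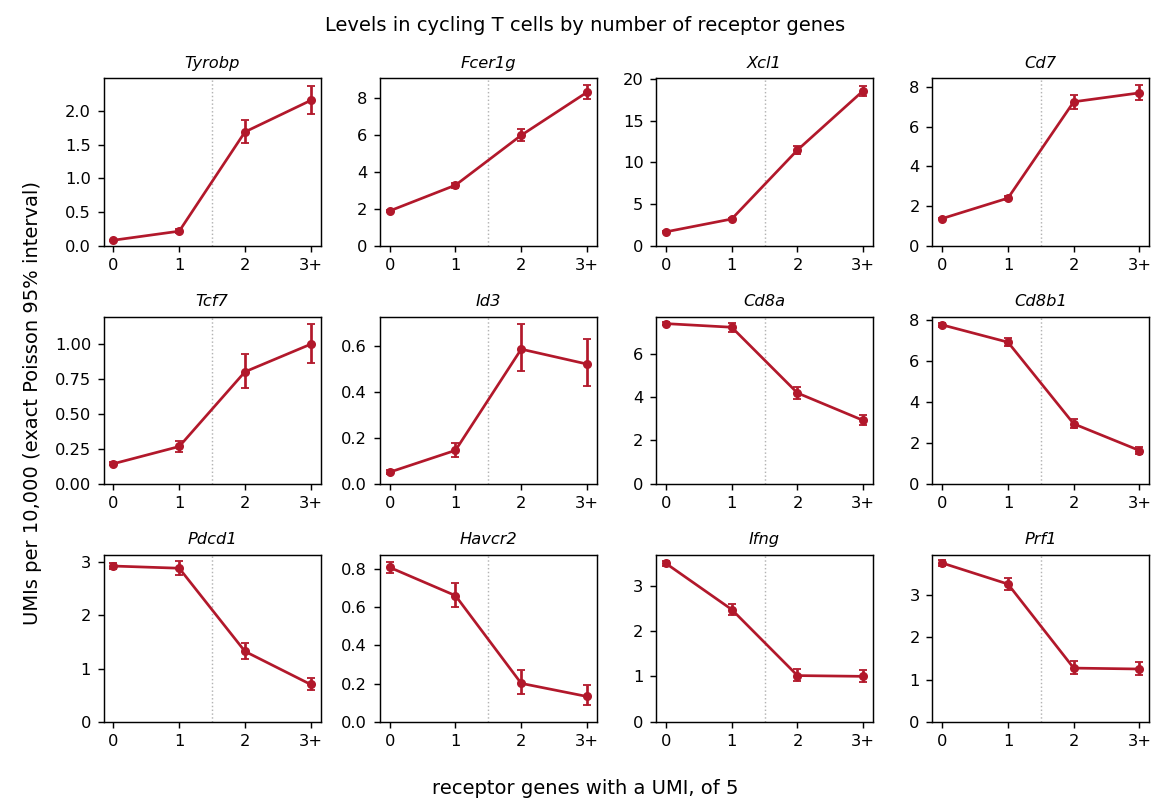
Level in UMIs per 10000 (y axes, from 0, exact Poisson 95% intervals) of 12 genes in cycling T cells with 0, 1, 2 and 3 or more of the 5 receptor genes (x axes). The dotted line marks the rule's threshold, with Tyrobp at 0.214 just left of it and 1.69 just right of it, and Pdcd1 at 2.89 and 1.32.

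Ly49-bearing T cells without an Mki67 UMI, 597 cells at a median of 7681 UMIs, are the most alike. Cells with an Mki67 UMI made up 34.2% of Ly49-bearing T cells and 33.0% of other T cells, and 20.9% and 24.4% after thinning. Of 7668 genes measured, 909 (11.9%) were at least 1.5-fold higher in the cycling cells and 218 (2.84%) lower. All 21 G1/S genes, all 21 G2/M genes and 14 of 15 histone genes measured were higher, as Mki67 chose the cells. The highest ratios were those of Hist1h3g (5.86, from 1 UMI in the cells without Mki67, interval 3.32 to 11.2), the cohesion gene Esco2 (5.73), the spindle gene Aspm (5.70) and the kinase gene Nek2 (5.39). Pbk (5.26), Gas2l3 (5.23), Kif14 (5.17), Kif18b (5.09), Mxd3 (5.07) and Ccnf (5.05) followed.

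The receptor genes were near in level in these cells. The same receptor rule chose both sets, so likeness in its genes is largely set by that choice. None of 6 Ly49 genes reached 1.5-fold, with Klra7 at 4.64 in cycling cells and 6.65 without Mki67 (-0.52), and Klra6 at 1.98 and 2.15 (-0.12). Outside the rule, Klra3 was at 0.993 and 0.896, and Klra5 at 0.597 and 0.412. Tyrobp was lower at 1.91 and 3.48 (-0.87), and Ncr1 at 0.412 and 0.713 (-0.79). Xcl1 was at 14.9 and 15.6, Cd7 at 7.48 and 7.56, and Cd8b1 at 2.31 and 2.26. The naive and memory list had 2 of 13 genes lower and 0 higher. Of 12 exhaustion genes, none reached 1.5-fold. Gzmc had the lowest ratio, at 1.52 and 6.22 (-2.04), although 1 cell held 24.4% of its UMIs in the cycling cells and another 59.8% of those in the cells without Mki67. Without the cell with most UMIs in each set it was at 1.15 and 2.53 (-1.13). Gzmf (-1.80) rested on single cells, with 48.8% and 84.2% of UMIs in 1 cell of each set and a log2 ratio of -0.12 without them. Ifitm1 (-1.88), Slfn5 (-1.77), Socs3, an inhibitor of cytokine signalling (-1.38), Tcp11l2 (-1.31), Pvr (-1.29), Pik3ip1 (-1.27), Kdm5b (-1.22) and Klf3 (-1.21) were the rest of the 10 lowest.

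NK cells (Cd3e at 0, Ncr1 and Tyrobp above 0) numbered 37, at a median of 12712 UMIs, and 18 of them had a CD8 UMI. Tyrobp was at 1.91 in Ly49-bearing cycling cells and 21.6 in NK cells, Fcer1g at 7.10 and 22.9, and Gzmc at 1.52 and 98.7. Cd3g was at 13.2 and 2.54, Trbc1 at 8.07 and 6.21, and Ikzf2 at 5.07 and 0.813. Klra6 was at 1.98 and 0.209, whereas Klra7 was at 4.64 and 3.88 and Klrb1f at 0.588 and 1.40. Tcf7, at 0.895 and 0.751, had overlapping intervals, and Xcl1 was at 14.9 and 24.1. NK cells were chosen on Ncr1, Tyrobp and Cd3e, so those genes are descriptions of the choice. The Ly49-bearing cells alone were chosen on the receptor genes, which raises their side for Klra6, Klra7 and Klrb1f. Of the 37 NK cells, 21 had at least 2 of the receptor genes.

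**Figure D5:**
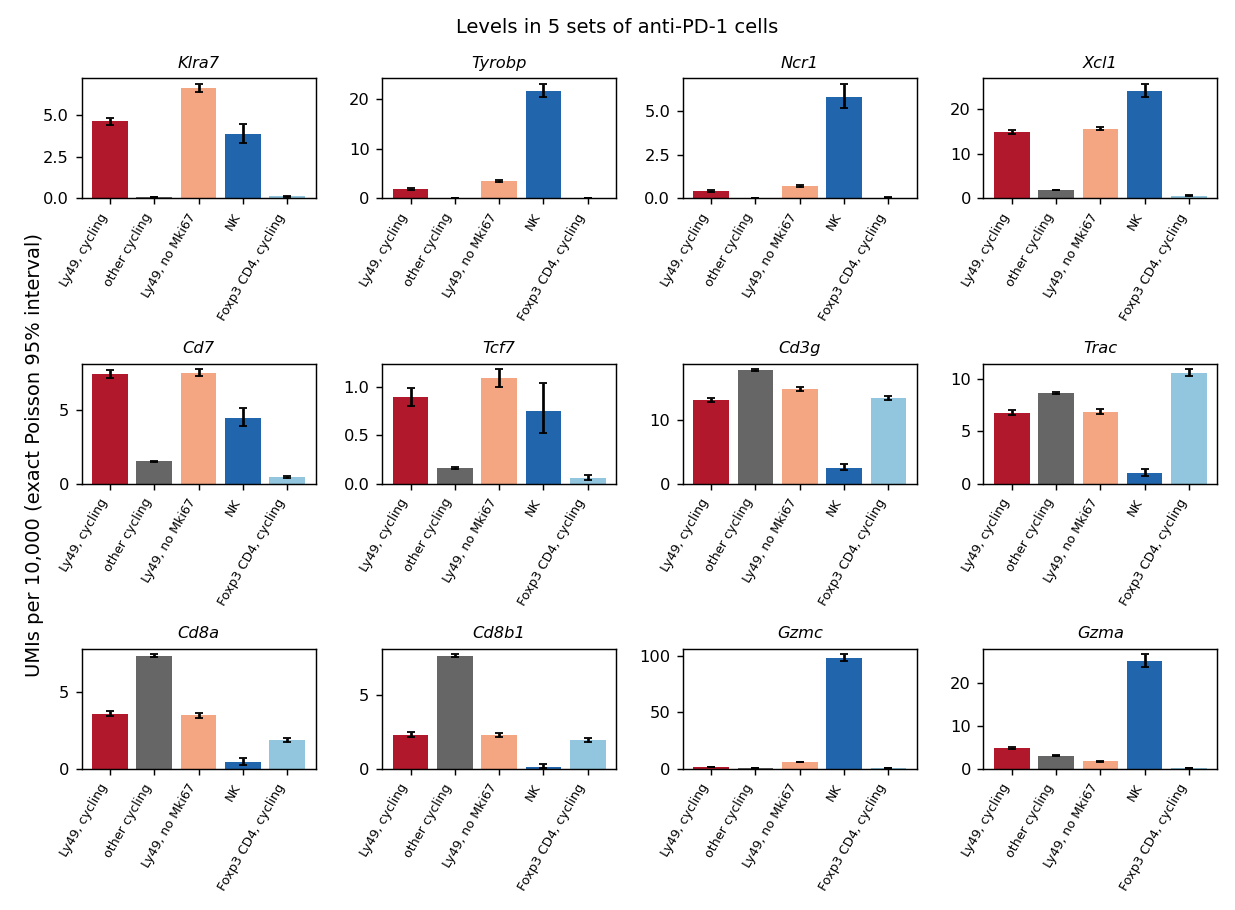
Level in UMIs per 10000 (y axes, from 0, exact Poisson 95% intervals) of 12 genes in Ly49-bearing cycling T cells, other cycling T cells, Ly49-bearing T cells without Mki67, NK cells and Foxp3 Cd4 cycling T cells. Tyrobp, Xcl1 and Gzmc are highest in NK cells at 21.6, 24.1 and 98.7, Cd7 is at 7.48 and 7.56 in the Ly49-bearing sets and 1.52 in other cycling cells, and Cd8b1 is highest in other cycling cells at 7.66.

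Among the Ly49-bearing cycling cells, the 47 without coreceptor UMIs were set against the 235 with CD8 alone, at medians of 11679 and 13040 UMIs. Of 7985 genes measured, 836 (10.5%) were at least 1.5-fold higher and 893 (11.2%) lower in the cells without coreceptor, shares that few cells make large. Ccl4 was at 0.582 and 4.93 (-3.08, interval -3.62 to -2.59), Ccl3 at 0.154 and 1.55 (-3.33) and Gzmk at 0.0514 and 0.463 (-3.17). Of 12 exhaustion genes, 6 were lower, with Pdcd1 at 0.342 and 1.10 (-1.68, or -2.32 without the cell with most UMIs in each set) and Lag3 at 0.479 and 1.23 (-1.36). The naive and memory list had 5 of 13 genes higher and 0 lower, with Tcf7 at 1.25 and 0.825 (0.60). Ncr1 was higher at 0.993 and 0.275 (1.85) and Klra1 at 5.19 and 2.93 (0.82), whereas Klra3 was lower at 0.514 and 1.05 (-1.03). Xcl1 was at 17.8 and 15.4. Ccl1 had the highest ratio (4.34), with 95.1% of its UMIs from 1 cell.

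Of 22 genes measured in the part of chromosome 6 from Klrb1a to Klra2 (128609227 to 131247362 in mm10), 5 are the receptor genes of the rule. Of the other 17, 7 were higher and 3 lower in Ly49-bearing than in other cycling cells, with a median of 0.34. Clec2i, whose product Clr-g is a ligand of NKR-P1F, was higher at 0.637 and 0.296 (1.11). Klrc1, Klri2 and Gm156 (0.722 and 2.45, -1.76) were the genes that were lower, and all lie between the Klrk1 gene and the Klra genes. Cd69, an activation and retention receptor, was at 2.20 and 1.74 (0.34).

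Single variable genes of the alpha and beta chains were found in few cells. A Trbv gene was found in 71 of the 310 Ly49-bearing cells (22.9%) and 939 of the 3626 other cycling cells (25.9%). Among cells with one, Trbv2 made up 15 of 71 (21.1%) and 334 of 939 (35.6%), Trbv3 12 (16.9%) and 58 (6.18%), and Trbv12-2 11 (15.5%) and 66 (7.03%). Of the 12 Trbv genes in the table each was found in at least 2 Ly49-bearing cells. A Trav gene was found in 59 cells (19.0%) and 512 (14.1%), led in the Ly49-bearing cells by Trav16n in 14 of 59. Of the gamma variable genes, Tcrg-V1 was found in 17 Ly49-bearing cells (5.48%) and 18 other cycling cells (0.496%), and Trgv2 in 143 (46.1%) and 1323 (36.5%), against 10.8% of Foxp3 Cd4 cells.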

How the data were processed

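The deposited table holds natural log values of single cells, 1 column a cell. Per the submitters' processing notes, Cell Ranger, Seurat and mm10 were used, with versions and cell filters not given in the sources used here. The deposited values equal the natural log of 1 plus UMIs per 10000, less a constant per library (0.249 under anti-PD-1). Removing it gave whole UMIs, within 0.02, for 100% of values. The subtraction sets 1 UMI to 0 in 37 anti-PD-1 cells. Summed UMIs per 10000 have exact Poisson intervals, ratios exact conditional binomial intervals and shares exact Clopper-Pearson intervals, all at 95%. The ratio intervals alone were tested on simulated data. Those were Poisson counts with the same depth in every cell of a set, which leave out spread between cells beyond counting error. A set without any UMI took a floor of 3 UMIs.

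Named genes were the list members described by list and, outside the genes of the rule and variable genes, the 15 highest and 15 lowest with intervals wholly past 1.5-fold, and 10 each way against cells without Mki67. The cells, the lists and the alternatives were chosen with earlier results of these data known. RefSeq sequences and GENCODE vM21 coordinates are on GRCm38, and 13379 of 13518 symbols matched. No doublet caller was run. Computations ran in Python 3.11.15 with scipy 1.17.1, numpy 2.4.6, matplotlib 3.10.9 and pandas 2.3.3.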

Additional observations from a re-analysis of the deposited data

How the results depend on the processing

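The numbers of genes higher and lower depend on how many genes enter. Against other cycling cells, 594 were higher with a UMI in at least 5% of cells. With 25%, 148 were higher and 184 lower, and with 1 UMI in each set, 1554 and 1370. Thinned to 4000 UMIs, 4609 genes entered and 180 were higher. Without cells with 2 or more UMIs of other cell types, 36 Ly49-bearing and 545 other cycling cells remained, with 1155 genes higher and 1039 lower. There the median of the gamma-delta and innate-like markers was -0.38, that of the interferon-stimulated genes -0.36, of cytokines and chemokines 0.04, Foxp3 0.70 and Irf7 -0.38, each opposite to its main sign. Without the cell with most UMIs of the gene in each set, chosen after seeing the data, Gzma was at 0.04. Gzma reversed to -1.18 in cells with at least 3 receptor genes and to -0.30 without the 5% of cells with most UMIs. Weighting for depth, means over cells, scaling to the median gene, cells with 0 receptor genes as the comparison and the 2 filters chosen after seeing the data (Ncr1, both coreceptors) kept both numbers within 1.5 times. Similar numbers do not show that the same genes were called. The share of cycling T cells was 4.89% after thinning, 20.9% with at least 1 receptor gene and 3.73% with at least 3. Against cells without Mki67, 518 were higher and 144 lower after thinning. Genes with under 3 UMIs in either set under an alternative gave no value there. No paired analysis was possible because each arm has 1 library. For the same reason no replicate could be left out.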
